A study of Homo sapiens with 12 samples.

Results

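The genes described here are 7 human CXC chemokine genes, CXCL1, CXCL2, CXCL3, CXCL5, CXCL6, CXCL8 and CXCL16, taken by symbol from 24556 distinct symbols in a table of RNA-seq expression values. Each of the 7 symbols stood on a single row. They were selected on their group mean FPKM in these samples, so the levels and differences of the 7 genes are given as a description, with no p-value, and support nothing further. CXC chemokines are small secreted proteins that bind G-protein-coupled receptors on leukocytes and guide their movement. CXCL1, CXCL2, CXCL3, CXCL5, CXCL6 and CXCL8 carry the Glu-Leu-Arg (ELR) motif, bind CXCR2 (CXCL6 and CXCL8 also CXCR1) and are known to attract neutrophils. These 6 genes lie in a cluster on chromosome 4 and are textbook targets of NF-kB downstream of IL-1 and TNF. CXCL16 does not belong to this class by its known function: it is a membrane-anchored chemokine without the ELR motif, lies on another chromosome, and binds CXCR6 on T cells and natural killer T cells.

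The cells were LM2, cells that derive from the triple-negative breast cancer line MDA-MB-231 and were picked for their capacity to colonise the lung, all grown in DMEM with fetal bovine serum. The 12 libraries formed 4 groups of 3. In 1 pair of groups the cells had been transduced with an shRNA, either a scramble sequence or one against EZH2, the catalytic subunit of Polycomb repressive complex 2. In the other pair they had been transfected with an siRNA, either scramble or against ZRANB1, a deubiquitinase. The labels do not give the number of shRNAs or siRNAs used, whether the transduced cells were a clone or a pool, the time after transfection, or whether replicate libraries were grown as separate cultures. A p-value therefore covers just the spread of values within groups, which may be technical. This spread was estimated from all 4 groups together and, in part, from other genes, so it is not that of the compared groups alone.

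Expression was deposited as FPKM, a fragment count divided by transcript length and by library size, which allows levels of different genes to be compared. The sequencing depth is unknown. Wherever the 3 values of a group differ, the table lists them sorted as text, so a column does not stand for a library. The values of a gene are therefore given from lowest to highest. Differences were computed on log2(FPKM + 1) with limma for the 11929 genes that averaged 1 FPKM or more, and "called" means a limma adjusted p below 0.05. EZH2 was lower in the EZH2 shRNA group (16.5 ± 0.681 FPKM, SD, n = 3) than in the scramble shRNA group (35.4 ± 1.07 FPKM), by limma with an adjusted p of 1.34e-05. For ZRANB1 the libraries labelled ZRANB1 siRNA had a mean of 10.0 ± 1.31 FPKM and the scramble siRNA libraries 11.4 ± 0.795 FPKM, a log2 difference of -0.17 with an adjusted p of 0.349 by limma, so the targeted transcript was not shown to be lower there. Every direction given below for the ZRANB1 comparison is that of the libraries so labelled. In these libraries EZH2 was also lower than with scramble siRNA, at 30.4 ± 2.08 against 48.6 ± 2.1 FPKM (limma, adjusted p of 5.43e-05). EZH2 differed between the controls too, being higher with scramble siRNA than with scramble shRNA (log2 difference of 0.45, adjusted p of 2.31e-04 by limma).

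All 5 genes listed for breast cancer lines of mesenchymal basal type (VIM, CD44, SPARC, KRT8 and KRT18) were present. Of these, the keratins KRT8 and KRT18 are not particular to this type. The summed means of the list were between 3360 and 3677 FPKM in the 4 groups, most of it VIM. Within this list CD44 (264, 261, 118 and 206 FPKM with scramble shRNA, with EZH2 shRNA, with scramble siRNA and with ZRANB1 siRNA) and SPARC (116, 94.6, 47.6 and 78.7 FPKM) were called lower with scramble siRNA than with scramble shRNA and higher with ZRANB1 siRNA than with scramble siRNA (limma, adjusted p of 7.61e-05 and 3.00e-05 for the latter). SPARC was also called lower with EZH2 shRNA (adjusted p of 0.0274 by limma). KRT8 (188 and 267 FPKM with scramble shRNA and scramble siRNA) and KRT18 (272 and 353 FPKM) were called higher with scramble siRNA. Their adjusted p was 0.0119 and 0.018 by limma, and VIM was called in no comparison. The 4 luminal markers summed to 7.20, 5.02, 4.23 and 5.22 FPKM, nearly all of it GATA3 (6.74, 4.87, 3.70 and 4.80 FPKM), which was called lower with EZH2 shRNA (limma, adjusted p of 0.0393), and PGR was listed at 0 in all 12 values. The 8 leukocyte markers summed to 4.27 FPKM with scramble shRNA, 3.29 with EZH2 shRNA, 0.584 with scramble siRNA and 1.23 with ZRANB1 siRNA. CSF3R and FCGR3B were listed at 0 throughout, and CD14, which some epithelial cells also transcribe, carried most of the sum except with scramble siRNA (3.90, 2.87, 0.243 and 0.867 FPKM in this order of groups), where LYZ was higher at 0.307 FPKM. The 5 fibroblast markers summed to 25.4, 20.1, 8.83 and 17.8 FPKM, nearly all of it COL1A1, and the 3 endothelial markers to 1.63, 1.18, 0.345 and 0.736 FPKM. These sums were lowest in the scramble siRNA group, where the chemokines were also lowest. Their part in the chemokine levels was not tested. In such bulk samples, fewer cells that transcribe a gene and less RNA per cell cannot be told apart.

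The RefSeq promoter table (GRCh38.p14) held 6 of the 7 genes, all except CXCL16. The 140 bases before each start site are shown because all 6 hold the same 9 letters at nearly the same place. They lie at chr4:73740429-73740568 (CXCL8, plus strand), chr4:73869253-73869392 (CXCL1, plus), chr4:74099196-74099335 (CXCL2, minus), chr4:74038690-74038829 (CXCL3, minus), chr4:73998678-73998817 (CXCL5, minus) and chr4:73836538-73836677 (CXCL6, plus). Capitals mark GGAATTTCC, a sequence of the type bound by NF-kB, and in CXCL8 also a match to TGANTCA, a sequence of the type bound by AP-1; each is written 5′ to 3′ on the strand of the gene.
CXCL8: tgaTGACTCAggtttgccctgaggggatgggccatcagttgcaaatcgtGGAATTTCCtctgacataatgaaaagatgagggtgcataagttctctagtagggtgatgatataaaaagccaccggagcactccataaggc
CXCL1: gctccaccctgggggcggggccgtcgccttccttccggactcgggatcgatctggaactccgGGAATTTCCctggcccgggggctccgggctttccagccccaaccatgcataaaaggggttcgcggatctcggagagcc
CXCL2: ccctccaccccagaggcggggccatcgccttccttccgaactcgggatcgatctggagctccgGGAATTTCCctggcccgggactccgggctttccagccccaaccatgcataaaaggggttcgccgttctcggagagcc
CXCL3: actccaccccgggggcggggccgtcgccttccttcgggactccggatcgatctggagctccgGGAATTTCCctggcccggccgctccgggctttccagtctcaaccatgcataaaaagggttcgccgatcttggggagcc
CXCL5: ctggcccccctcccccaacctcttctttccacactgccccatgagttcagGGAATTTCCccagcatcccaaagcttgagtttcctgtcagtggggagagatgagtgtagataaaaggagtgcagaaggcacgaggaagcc
CXCL6: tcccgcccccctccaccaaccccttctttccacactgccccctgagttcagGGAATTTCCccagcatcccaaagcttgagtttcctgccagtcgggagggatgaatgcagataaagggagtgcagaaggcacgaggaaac

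Within the 250 bases before the start, GGAATTTCC (searched on both strands; it is not its own reverse complement) was present in 6 of the 6 chemokine promoters and in 117 of the 27305 promoters of the table, which is 0.428%. Its first base stood 78 bases before the start in CXCL1, 77 in CXCL2, 78 in CXCL3, 90 in CXCL5, 89 in CXCL6 and 91 in CXCL8. TGANTCA (both strands) was found in CXCL8 alone of the 6, 137 bases before the start, and in 6.60% of all promoters. TATAAA (gene strand only, exact letters) was likewise found in CXCL8 alone of the 6, 31 bases before the start, and in 7.17% of all promoters. At about that place CXCL1, CXCL2 and CXCL3 read cataaa and CXCL5 and CXCL6 gataaa, near forms that this search did not count. The letters searched were chosen after the promoters had been read, a match is not a binding site, and the 6 promoters are related copies rather than independent examples. Over these 250 bases before the start, CXCL1 and CXCL3 were 81.4% identical, CXCL5 and CXCL6 85.3%, and CXCL1 and CXCL2 70.1%. CXCL8 shared between 43.9% and 47.9% with the others. The same letters thus stand before 4 genes with high levels in these cells and before CXCL5 and CXCL6, whose levels were near or at 0.

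CXCL8, the interleukin-8 gene and a main neutrophil attractant in humans, was the member with the highest single values. With scramble shRNA its 3 values were 105, 142 and 156 FPKM, and with EZH2 shRNA 295, 319 and 389 FPKM. With scramble siRNA they were 1.81, 1.97 and 2.27 FPKM, and with ZRANB1 siRNA 117, 123 and 168 FPKM. The EZH2 shRNA values all lay above the other 9, the scramble siRNA values all lay below, and the ZRANB1 siRNA and scramble shRNA values overlapped. The mean was 334 ± 48.9 FPKM (SD, n = 3) with EZH2 shRNA against 134 ± 26.3 with scramble shRNA, a ratio of 2.49 and a log2 difference of 1.32 (SE 0.17). It was 136 ± 27.7 FPKM with ZRANB1 siRNA against 2.02 ± 0.236 with scramble siRNA, a ratio of 67.6 and a log2 difference of 5.49. Ranked by log2 difference among the 11929 tested genes, CXCL8 was number 4 from the top in the ZRANB1 comparison and number 42 in the EZH2 comparison. The ZRANB1 siRNA mean was 101% of the scramble shRNA mean and 40.8% of the EZH2 shRNA mean.

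CXCL1, once named GRO-alpha, is a CXCR2 ligand first known as a melanoma growth factor. Its values were 158, 177 and 188 FPKM with scramble shRNA and 154, 155 and 169 FPKM with EZH2 shRNA, and these groups overlapped. They were 1.37, 1.52 and 1.84 FPKM with scramble siRNA and 66.9, 74.8 and 78.7 FPKM with ZRANB1 siRNA, and these did not overlap with each other or with the shRNA groups. The EZH2 shRNA mean of 159 ± 8.21 FPKM was 0.912 times the scramble shRNA mean of 175 ± 15.0, a log2 difference of -0.13 with a 95% interval from -0.34 to 0.075. The ZRANB1 siRNA mean of 73.5 ± 6.01 FPKM was 46.5 times the scramble siRNA mean of 1.58 ± 0.241, a log2 difference of 4.85 (SE 0.094), number 8 from the top of the tested genes. It was also 42.1% of the scramble shRNA mean, so CXCL1, unlike CXCL8, stood below the shRNA control with ZRANB1 siRNA.

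CXCL2, a CXCR2 ligand also known as MIP-2-alpha, had values of 22.2, 22.5 and 22.9 FPKM with scramble shRNA and 22.0, 22.6 and 25.6 FPKM with EZH2 shRNA. With scramble siRNA they were 0.876, 1.59 and 1.62 FPKM, and with ZRANB1 siRNA 12.2, 14.5 and 15.1 FPKM. The shRNA groups overlapped and the siRNA groups did not. The EZH2 shRNA mean was 1.04 times its control (log2 difference of 0.047, 95% interval from -0.23 to 0.32), and the ZRANB1 siRNA mean of 13.9 ± 1.52 FPKM was 10.2 times its control of 1.36 ± 0.423 FPKM (log2 difference of 2.67, SE 0.13).

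CXCL3, also named GRO-gamma and closely related to CXCL1 and CXCL2, had values of 13.8, 16.3 and 17.6 FPKM with scramble shRNA and 19.1, 21.9 and 22.9 FPKM with EZH2 shRNA. The latter all lay above the former, with a ratio of means of 1.34 and a log2 difference of 0.40 (SE 0.14), but the gene was not called. Its values were 0.479, 0.910 and 1.18 FPKM with scramble siRNA and 10.8, 12.4 and 12.8 FPKM with ZRANB1 siRNA. These groups did not overlap, with means of 0.855 ± 0.352 and 12 ± 1.06 FPKM, a ratio of 14.1 and a log2 difference of 2.83.

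CXCL5, CXCL6 and CXCL16 were too low to be tested. CXCL5, or ENA-78, is a CXCR2 ligand released by epithelial cells. It stood at 0.0359, 0.0427 and 0.0944 FPKM with scramble shRNA, 0.104, 0.185 and 0.305 FPKM with EZH2 shRNA, 0.108, 0.138 and 0.139 FPKM with ZRANB1 siRNA, and with scramble siRNA it was listed at 0 except for a value of 0.108 FPKM. All 12 values were under 0.31 FPKM, where small differences cannot be interpreted without the depth. CXCL6, or GCP-2, was listed at 0 in all 12 values. CXCL16 stood between 0.0609 and 0.426 FPKM, and all 4 groups overlapped, with means of 0.285 ± 0.151 FPKM with scramble shRNA, 0.241 ± 0.164 with EZH2 shRNA, 0.19 ± 0.118 with scramble siRNA and 0.304 ± 0.115 with ZRANB1 siRNA.

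**Figure D1:**
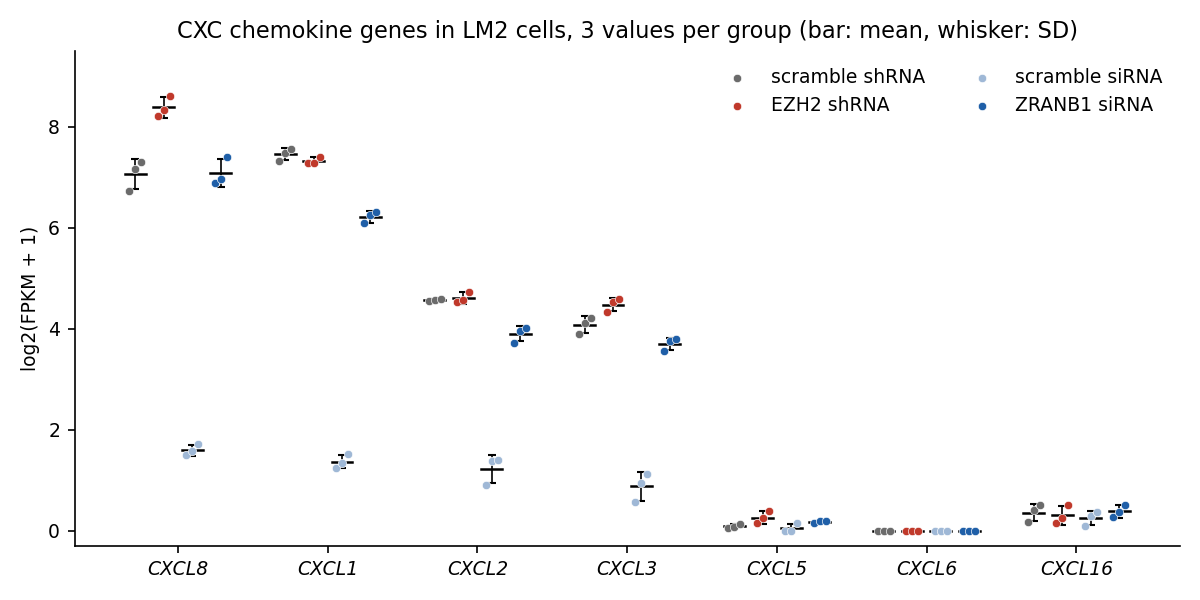
Level of each of the 7 chemokine genes on the log2(FPKM + 1) scale (vertical axis) in the 4 groups (colours), with each of the 3 values as a point, the mean as a bar and the SD as a whisker. For CXCL8, CXCL1, CXCL2 and CXCL3 the scramble siRNA values sit far below all others; the EZH2 shRNA values lie above every other group for CXCL8 and, by less, for CXCL3; CXCL5, CXCL6 and CXCL16 lie near or at 0.

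Of the 7 members, 4 passed the filter. The EZH2 comparison called 1 of the 4 higher (CXCL8) and 0 lower, where 3.39% of all tested genes were called higher and 6.41% in either direction. The ZRANB1 comparison called all 4 higher, where 10.1% of tested genes were, and 16.6% in either direction. The median log2 difference of the 4 was 0.22 and 3.84, against -0.014 and -0.017 over all tested genes. Since these contrasts were known when the genes were chosen, and a low gene passed the filter only where some group was high, nothing is read from these counts.

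The scramble controls themselves differed in these 4 genes by amounts close to or above those of the ZRANB1 comparison. The scramble siRNA group lay below the scramble shRNA group with a log2 difference of -5.47 for CXCL8, -6.09 for CXCL1, -3.33 for CXCL2 and -3.20 for CXCL3, that is with shRNA to siRNA ratios of means of 66.6, 111, 16.5 and 18.6. All 4 were called lower, where 25.1% of tested genes were called lower and 50.6% were called in either direction. Ranked from the lowest log2 difference, CXCL1 was number 4 and CXCL8 number 10 of the tested genes. The type of RNA, its delivery and any difference in handling or date cannot be told apart in this comparison, and it shares its samples with the EZH2 and ZRANB1 comparisons. The ZRANB1 siRNA levels of the 4 genes were thus between 42.1% and 101% of the scramble shRNA levels while being 10.2 to 67.6 times those of their own control. On a log2 scale the effects in the ZRANB1 and EZH2 comparisons differed by 4.17 for CXCL8, 4.98 for CXCL1, 2.62 for CXCL2 and 2.43 for CXCL3. All 4 were called for this difference, where 6.91% of tested genes were called in this direction, 3.58% in the other and 10.5% in all. The members were selected on the same group means, so nothing is read from either count, between the controls or for the difference.

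The balance between the members also varied. The 7 means summed to 348 FPKM with scramble shRNA, 538 with EZH2 shRNA, 6.04 with scramble siRNA and 236 with ZRANB1 siRNA. With scramble shRNA, CXCL1 was the most abundant, at 50.2% of the sum, and CXCL8 followed with 38.6%. With EZH2 shRNA the order was the opposite, with CXCL8 at 62.1% and CXCL1 at 29.6%. With ZRANB1 siRNA CXCL8 was 57.7% and CXCL1 31.1% of the sum. The ratio of CXCL8 to CXCL1 was 0.769 with scramble shRNA, and no pairing of its values gives less than 0.559 or more than 0.984. It was 2.1 with EZH2 shRNA (possible range from 1.75 to 2.53), 1.85 with ZRANB1 siRNA (1.49 to 2.51) and 1.28 with scramble siRNA (0.982 to 1.66). The possible range of the scramble shRNA group thus lay below those of the EZH2 shRNA and ZRANB1 siRNA groups and just overlapped that of the scramble siRNA group. CXCL2 and CXCL3 followed CXCL8 and CXCL1 in all groups; their values overlapped with EZH2 shRNA, ZRANB1 siRNA and scramble siRNA but not with scramble shRNA, where CXCL2 was higher. With scramble siRNA, neighbours in the order from CXCL8 through CXCL1 and CXCL2 to CXCL3 all overlapped.

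**Figure D2:**
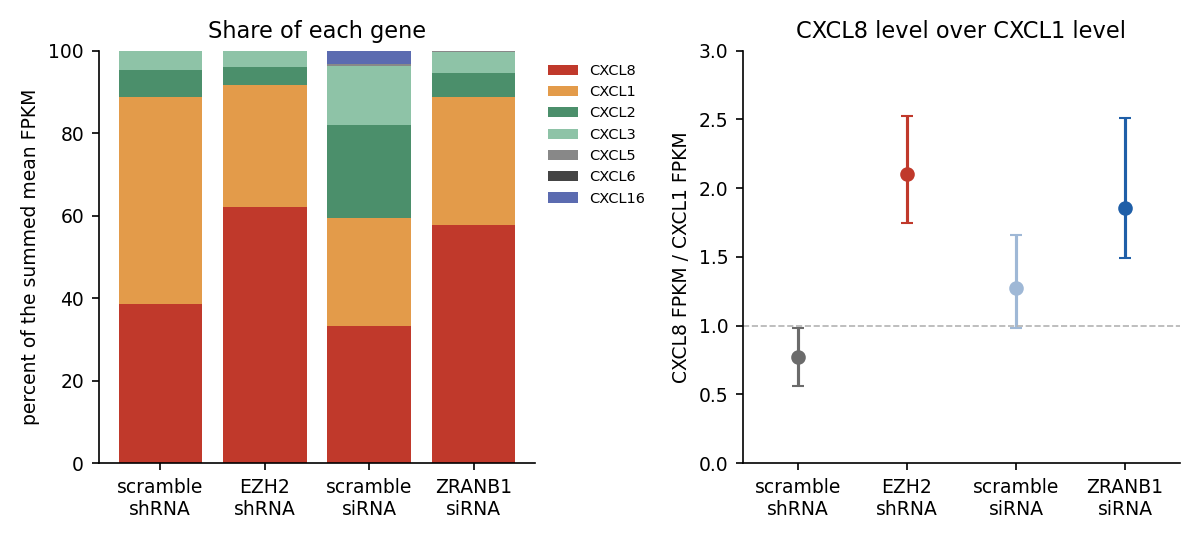
Left, share of each of the 7 genes in the summed mean FPKM of a group (percent, stacked); right, ratio of the CXCL8 mean to the CXCL1 mean, with whiskers for the lowest and highest ratio that any pairing of the 3 values could give and a dashed line at 1. CXCL1 makes up 50.2% with scramble shRNA and CXCL8 62.1% with EZH2 shRNA, and only with scramble shRNA does the whole ratio range lie below 1.

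Related copies can exchange reads. Of all 50-base windows of the GENCODE transcripts, 5.73% of those of CXCL1, 9.24% of those of CXCL2 and 5.26% of those of CXCL3 occurred exactly in another gene of this trio, whereas 0 of 1656 windows of CXCL8 occurred in any other gene. The CXCL1 and CXCL2 transcripts were 80.4% identical, CXCL1 and CXCL3 71.2% and CXCL2 and CXCL3 67.5%. The lengths of the study's reads and its handling of multiply mapped reads are not stated in the sources at hand, so the split of reads between CXCL1, CXCL2 and CXCL3 is uncertain, while CXCL8 is not touched by exact copies of this length. The 6 members of the cluster share a further feature: their 3′ untranslated regions are rich in the AU-rich letters ATTTA, which are known to mark short-lived messages. The 3′ regions of CXCL8, CXCL1, CXCL2 and CXCL3 held 9, 5, 10 and 7 copies, or 7.19, 7.08, 13.9 and 10.4 per kilobase, against a median of 1.48 and a 90th percentile of 4.81 over 19004 protein-coding genes. CXCL5 and CXCL6 held 5.51 and 5.36 per kilobase, and CXCL16 held 1.02, below the median of all genes. The longer form TTATTTATT occurred 3 times in CXCL1, 5 times in CXCL2 and once each in CXCL3 and CXCL8, and at least once in 8.18% of all genes.

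The genes around the members on chromosome 4 were compared next. In RefSeq order the cluster runs CXCL8, CXCL6, PF4V1, CXCL1, PF4, PPBP, CXCL5, CXCL3 and CXCL2, followed by MTHFD2L and the EGF-family genes EPGN, EREG, AREG and BTC. CXCL3 and CXCL2 are neighbours in this order. Between CXCL8 and CXCL1 lie CXCL6 and PF4V1, both listed at 0 in all 12 values, and between CXCL1 and CXCL3 lie PF4, PPBP and CXCL5. PPBP, whose platelet product is a further CXCR2 ligand, was listed at 0 throughout, and PF4, platelet factor 4, had 1 value above 0 (0.133 FPKM, with EZH2 shRNA). Of the 10 neighbours listed, 2 could be tested. MTHFD2L, a mitochondrial folate enzyme, was between 1.16 and 1.44 FPKM in mean and was called in no comparison. EREG, the EGF receptor ligand epiregulin, stood at 22.3, 22.4 and 27.4 FPKM with ZRANB1 siRNA and at 13.2, 14.0 and 17.1 FPKM with scramble siRNA, and it rose by 0.67 on the log2 scale (limma, adjusted p of 0.0158; 0.0686 at most when 1 value was left out). With EZH2 shRNA its mean was 32.6 ± 7.27 FPKM against 27.7 ± 4.31 with scramble shRNA (log2 difference of 0.22, adjusted p of 0.492 by limma). Between the controls, EREG was called lower with scramble siRNA than with scramble shRNA (log2 difference of -0.86, adjusted p of 0.00101 by limma). PARM1, the last gene of the region shown, was too low to be tested, with means of 0.822, 1.31, 0.0258 and 0.520 FPKM, in the same order of groups as above for the markers; it is named here after its values were seen.

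**Figure D3:**
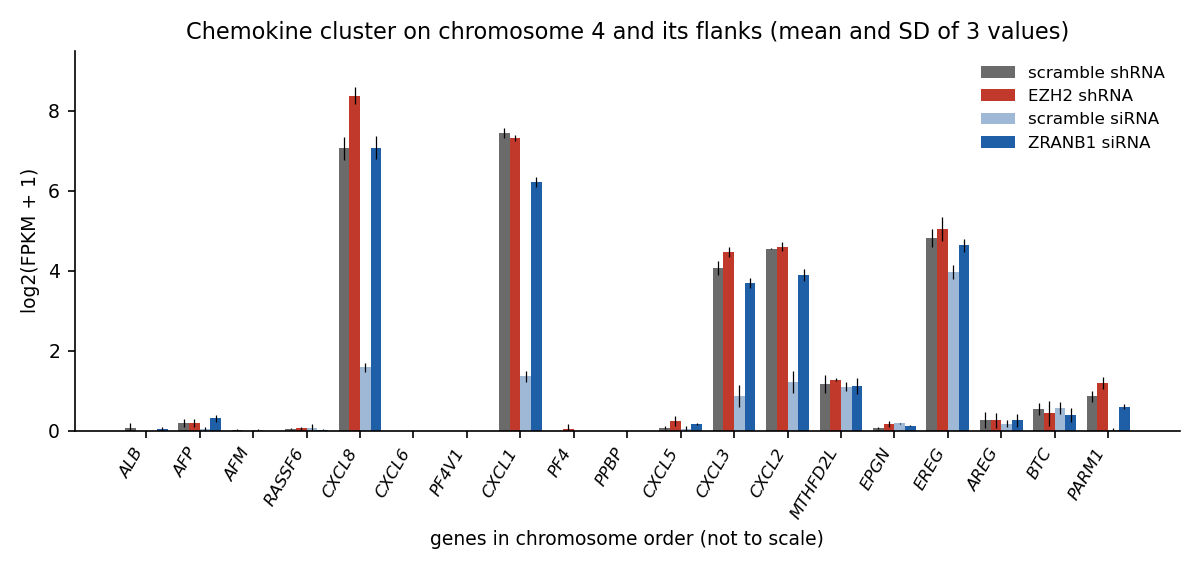
Mean log2(FPKM + 1) with SD (3 values) of the genes of the chromosome 4 cluster and its flanks in their chromosome order, not to scale, in the 4 groups (colours). CXCL8, CXCL1 and the adjacent CXCL3 and CXCL2 stand at high levels in 3 of the 4 groups, genes at or near 0 lie between CXCL8 and CXCL1 and between CXCL1 and CXCL3, and EREG is the flanking gene with high levels in all 4 groups.

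The receptors of these chemokines were near absent from the table. CXCR1 and the scavenger receptor ACKR1 were listed at 0 in all 12 values, CXCR2 had a single value above 0 (0.0332 FPKM, with EZH2 shRNA), and CXCR6, the receptor of CXCL16, did not exceed 0.212 FPKM. Of 22 chemokine receptors, 1 could be tested: CCR1, a receptor of CC chemokines. It was called higher with ZRANB1 siRNA, at 1.82 ± 0.369 against 0.953 ± 0.359 FPKM with scramble siRNA (log2 difference of 0.54, adjusted p of 0.037 by limma). The adjusted p reached 0.126 when 1 value was left out. With scramble shRNA the CCR1 mean was 3.17 FPKM, and scramble siRNA was called lower than that (log2 difference of -1.11, adjusted p of 1.22e-04 by limma).

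Other chemokines followed by class. Of the 10 other CXC chemokines listed, 2 were tested, the interferon-inducible CXCR3 ligands CXCL10 and CXCL11, and both rose with ZRANB1 siRNA and neither was called with EZH2 shRNA. CXCL10 was 1.57, 1.97 and 2.12 FPKM with ZRANB1 siRNA and at most 0.0743 FPKM with scramble siRNA (log2 difference of 1.46, adjusted p of 9.02e-06 by limma), and its means of 5.54 and 5.58 FPKM with EZH2 shRNA and scramble shRNA differed by -0.0073 on the log2 scale (adjusted p of 0.99). CXCL11 was 2.09 ± 0.475 FPKM with ZRANB1 siRNA and 0.0293 ± 0.0256 with scramble siRNA (log2 difference of 1.58, adjusted p of 1.23e-04 by limma). Of 31 chemokines of the CC, CX3C and XC classes, 26 were in the table and 5 were tested, with 2 higher in the ZRANB1 comparison and 0 called in the EZH2 comparison. That count of 2 ran from 0 to 3 in other settings, and the filter at 5 FPKM removed both called genes, CCL20 and CX3CL1. In the other settings that tested them, their adjusted p in the ZRANB1 comparison was at most 0.0035 and 3.57e-04 by limma. Over all tested genes, 10.1% were higher and 6.5% lower with ZRANB1 siRNA, and 3.39% and 3.03% with EZH2 shRNA. CCL20, the ligand of CCR6, stood at 3.5 ± 0.198 against 0.421 ± 0.242 FPKM (log2 difference of 1.67, adjusted p of 3.20e-04 by limma). CX3CL1, or fractalkine, stood at 1.65 ± 0.0773 FPKM against values listed at 0, 0 and 0.0665 FPKM (log2 difference of 1.38, adjusted p of 3.44e-05 by limma). CCL5, or RANTES, was not called in either comparison. With scramble shRNA the means of CXCL11, CCL20 and CX3CL1 were 5.13, 5.26 and 4.31 FPKM, above those with ZRANB1 siRNA. Between the controls, these genes and CXCL10 were called lower with scramble siRNA, where 25.1% of all tested genes were. Their log2 differences were -2.56, -2.14, -2.37 and -2.65. At these low levels the log2 difference depends on the pseudocount: with 0.1 FPKM in place of 1, those of the ZRANB1 comparison were 3.8 for CXCL10, 4.08 for CXCL11, 2.89 for CCL20 and 3.88 for CX3CL1.

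The list of IL-1 and TNF signalling, the inducers of these chemokines, had 18 tested genes. With ZRANB1 siRNA 6 were higher and 0 lower, and with EZH2 shRNA 3 were higher and 3 lower (6 called; 1 with the 6 values of that comparison alone). For comparison, 10.1% of all tested genes were higher and 6.5% lower in the former, and 3.39% higher and 3.03% lower in the latter. Between the controls, 13 of the 18 were lower with scramble siRNA and 1 higher, where 25.1% and 25.5% of all tested genes were. IL1B, interleukin-1 beta, had the highest mean of these genes in all groups but scramble siRNA. Its values were 425, 438 and 441 FPKM with scramble shRNA, 508, 668 and 686 with EZH2 shRNA, 14.0, 15.1 and 15.8 with scramble siRNA and 322, 346 and 353 with ZRANB1 siRNA. No 2 groups overlapped, and the order of the groups was the same as for CXCL8 except that the scramble shRNA group stood above the ZRANB1 siRNA group. IL1B rose by 4.42 on the log2 scale with ZRANB1 siRNA (adjusted p of 1.30e-10 by limma) and by 0.50 with EZH2 shRNA (adjusted p of 0.0158), a call that was lost with the 6 values of that comparison alone (adjusted p of 0.126) and with single values left out (up to 0.0585). IRAK2, a kinase-like adaptor of the IL-1 receptor, rose in both, from 3.91 ± 0.379 to 11.3 ± 0.257 FPKM with ZRANB1 siRNA (adjusted p of 1.83e-07 by limma) and from 13.7 ± 0.711 to 18.8 ± 0.458 FPKM with EZH2 shRNA (adjusted p of 0.0048; 0.0569 with those 6 values alone).

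NF-kB subunits, inhibitors and kinases form the next step. Of 14 tested genes, 9 were higher and 0 lower with ZRANB1 siRNA, where 10.1% of all tested genes were higher and 6.5% lower, with a median log2 difference of 0.67 against -0.017 over all genes. In scramble siRNA, 12 of these 14 were lower than in scramble shRNA, where 25.1% of all tested genes were. With EZH2 shRNA 1 was higher and 0 lower, where 3.39% of all tested genes were higher and 3.03% lower, with a median of -0.014, the same as over all genes. The gene called with EZH2 shRNA was TNFAIP3 (A20), an inhibitor of NF-kB signalling that is itself an NF-kB target. It stood at 18 ± 0.869 FPKM against 8.11 ± 0.268 (log2 difference of 1.06, adjusted p of 1.07e-05 by limma), and with ZRANB1 siRNA at 8.54 ± 0.438 against 1.44 ± 0.0645 FPKM (log2 difference of 1.96, adjusted p of 4.88e-09). NFKBIA, the inhibitor IkB-alpha and also an NF-kB target, rose with ZRANB1 siRNA from 18.2 ± 0.113 to 47.6 ± 0.519 FPKM (log2 difference of 1.34, adjusted p of 4.05e-08 by limma), and was 79.99 ± 4.65 against 89.6 ± 2.36 FPKM in the EZH2 comparison (adjusted p of 0.14).

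AP-1 and C/EBP factors, which are known to act with NF-kB at the CXCL8 promoter, had 12 tested genes, of which 5 were higher and 1 lower with ZRANB1 siRNA and 0 higher and 3 lower with EZH2 shRNA. Over all tested genes the shares were 10.1% higher and 6.5% lower in the former and 3.39% and 3.03% in the latter. These counts were not stable: 3 in place of 6 were called with ZRANB1 siRNA without a filter, and 1 in place of 3 with the 6 values of the EZH2 comparison alone. Between the controls, 7 of the 12 were lower with scramble siRNA and 2 higher, where 25.1% and 25.5% of all tested genes were. JUN rose from 73.6 ± 3.65 to 95.9 ± 0.923 FPKM with ZRANB1 siRNA (adjusted p of 0.00177 by limma), and JUNB from 15.3 ± 3.09 to 30.8 ± 2.90 FPKM (adjusted p of 0.00289). With EZH2 shRNA, FOS fell from 3.34 ± 0.242 to 1.79 ± 0.373 FPKM (adjusted p of 0.00789 by limma; 0.0607 with the 6 values alone) and CEBPD from 69.8 ± 11.4 to 35.9 ± 6.25 FPKM (adjusted p of 0.0104; 0.0579 with the 6 values alone). CEBPD was called in the opposite direction with ZRANB1 siRNA, at 22.5 ± 4.65 against 14.2 ± 2.25 FPKM (adjusted p of 0.0332 by limma; up to 0.125 with 1 value left out).

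Regulators of chemokine message decay had 14 tested genes, 3 higher and 0 lower with ZRANB1 siRNA (10.1% and 6.5% over all tested genes) and 1 higher and 1 lower with EZH2 shRNA (3.39% and 3.03%). ZC3H12A (Regnase-1), an endonuclease known to cut inflammatory messages such as IL6, moved in opposite directions in the comparisons. Its values were 40.8, 50.3 and 50.7 FPKM with scramble shRNA and 25.5, 26.2 and 30.4 FPKM with EZH2 shRNA, a log2 difference of -0.77 (adjusted p of 0.00209 by limma). They were 1.55, 1.81 and 2.07 FPKM with scramble siRNA and 13.1, 14.0 and 15.3 FPKM with ZRANB1 siRNA, a log2 difference of 2.43 (adjusted p of 4.06e-08). No 2 of the 4 groups overlapped. ZC3H12C, a relative, rose with ZRANB1 siRNA from 3.97 ± 0.552 to 8.42 ± 1.02 FPKM (adjusted p of 9.95e-04 by limma). RC3H2 (Roquin-2), which binds stem-loops in such messages, rose in both comparisons, by 0.48 with EZH2 shRNA (adjusted p of 0.00834 by limma; 0.104 with the 6 values alone) and by 0.38 with ZRANB1 siRNA (adjusted p of 0.0113; up to 0.051 with 1 value left out). Between the controls, 4 of the 14 were lower with scramble siRNA and 3 higher, where 25.1% and 25.5% of all tested genes were.

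Proteins that cleave, shed or tether chemokines at the cell surface had 10 tested genes, 6 higher and 0 lower with ZRANB1 siRNA and 2 higher and 2 lower with EZH2 shRNA (2 called in all with the 6 values of that comparison alone). The shares over all tested genes were 10.1% and 6.5% in the former comparison and 3.39% and 3.03% in the latter. Between the controls, 8 of these 10 genes were lower with scramble siRNA, where 25.1% of all tested genes were. MMP1, a collagenase, stood at 329 ± 16 FPKM with EZH2 shRNA against 27.0 ± 1.64 with scramble shRNA (log2 difference of 3.56, adjusted p of 7.03e-10 by limma), and at 175 ± 13.5 FPKM with ZRANB1 siRNA against 4.18 ± 0.347 with scramble siRNA (5.09, adjusted p of 1.03e-11). MMP2, a gelatinase, moved in opposite directions: with EZH2 shRNA it fell from 11.5 ± 1.22 to 3.62 ± 0.0829 FPKM (adjusted p of 2.66e-05 by limma), and with ZRANB1 siRNA it rose from 1.04 ± 0.233 to 2.73 ± 0.239 FPKM (adjusted p of 1.59e-04). SDC4, the heparan sulfate proteoglycan syndecan-4, which can hold chemokines at the surface, rose with ZRANB1 siRNA from 53.6 ± 1.07 to 154 ± 8.97 FPKM (adjusted p of 1.42e-07 by limma) and was 291 ± 21.6 against 274 ± 21.7 FPKM in the EZH2 comparison (adjusted p of 0.568).

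**Figure D4:**
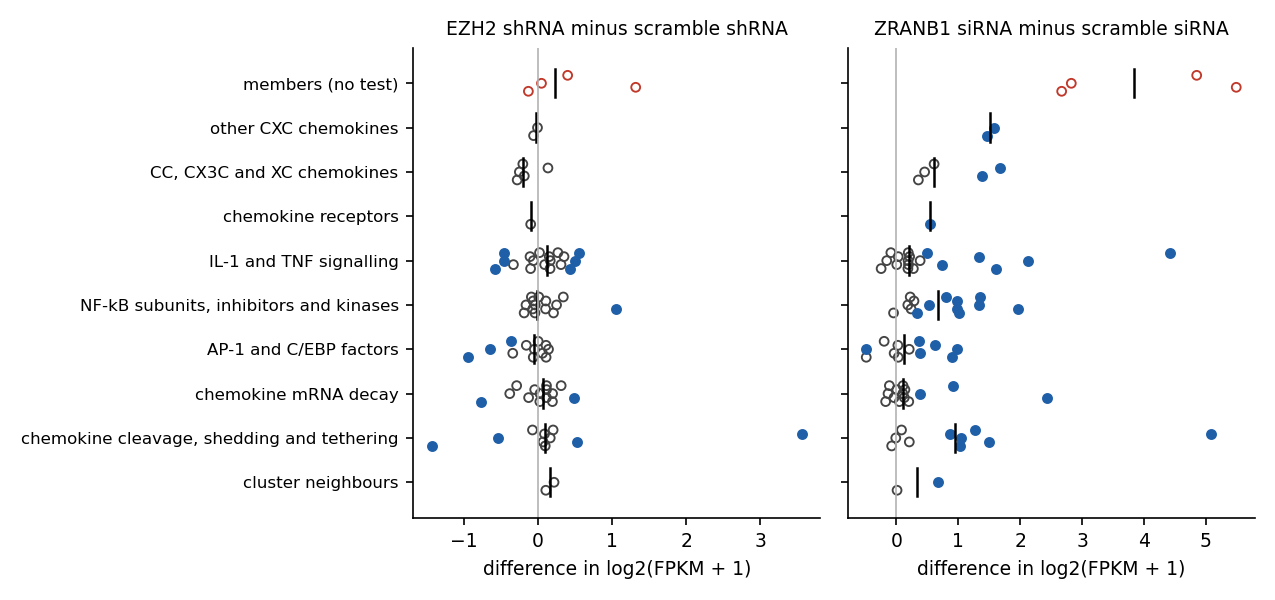
Difference in log2(FPKM + 1) of each tested gene (points) of the chemokine members and 9 gene lists in the EZH2 comparison (left) and the ZRANB1 comparison (right); filled points were called, open ones were not, black bars are list medians, and the members (top row) carry no test. In the right panel the members lie between 2.67 and 5.49 and 9 of 14 NF-kB genes are filled, all to the right of 0; in the left panel CXCL8 lies at 1.32 and TNFAIP3 is the filled NF-kB gene.

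A search for tested genes with 4 group means like those of CXCL8 or CXCL16 left out all members, so no member could be listed. By Euclidean distance between centred means of log2(FPKM + 1), the non-member genes nearest to CXCL8 were IL6 (distance of 0.855), MIR5047 (0.919), ALOX5AP (1.11), IL1B (1.11) and C3 (1.34). They were chosen for their likeness over 4 points, so their levels are a description. IL6, interleukin-6, had means of 202 FPKM with scramble shRNA and 235 with EZH2 shRNA, and of 2.15 with scramble siRNA and 105 with ZRANB1 siRNA. C3, complement component 3, had means of 189, 172, 0.324 and 69.7 FPKM in the same order, and ALOX5AP, the 5-lipoxygenase activating protein, 44.2, 52.9, 0.146 and 22.5 FPKM. The values of MIR5047, a microRNA gene, ran from 0 to 898 FPKM within the scramble shRNA group, so its likeness rests on means of widely scattered values. None of the 5 had an EZH2 shRNA mean over its scramble shRNA mean by as much as CXCL8: the ratio of means was 2.49 for CXCL8 and, on 620 against 435 FPKM, smaller for IL1B. For CXCL16 the nearest genes were CLN8, SPNS1, PPP6R1, YAE1D1 and HSF2BP, at distances between 0.0103 and 0.0221, all with nearly flat means over the 4 groups. The CXCL16 values were at most 0.426 FPKM, where log2(FPKM + 1) is nearly flat whatever the relative change. The small distances therefore show no likeness beyond a flat profile.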

How the data were processed

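RNA of 12 LM2 libraries had been sequenced. Per the submitters' processing notes, the tools were Cufflinks 2.2.1, Cuffdiff 2.2.1, TopHat2 2.1.1 and SAMtools, on the build hg19; options and annotation are not stated there. The deposited table held FPKM in 26006 rows and 12 columns. Columns carry the group but, since values stood in text order, no library. Where a symbol had several rows (440 symbols), that of the highest mean was used.

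Values were analysed as log2(FPKM + 1), which understates changes of low genes, for genes averaging 1 FPKM or more. limma 3.58.1 in R 4.3.3 fitted the 4 groups together with an intensity trend, with Benjamini-Hochberg adjustment over all 11929 genes; the steps were tested on simulated data. Every adjusted p in the text is from this fit or a stated alternative of it. Group scaling factors stayed within 0.017 on the log2 scale. Promoters came from RefSeq (GRCh38.p14) and transcripts from GENCODE, and identities were computed with Biopython 1.88. Figures were drawn with matplotlib 3.10.9.

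The members and the gene lists were chosen with earlier results of these data known. Genes named were the members, the targets EZH2 and ZRANB1, up to 2 tested genes with the smallest p per list and comparison, tested CXC genes, and the chosen receptors and cluster neighbours. Also named were the 5 tested non-member genes nearest to CXCL8 and to CXCL16. Precision is limited by 3 values per group. The alternatives tried were no trend, summed rows, a scaling factor per group, the 6 values of a comparison alone, leaving out each value, a 0.1 pseudocount, and a filter at 5 FPKM or none. The values of 1 leukocyte marker are not reported here.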

Additional observations from a re-analysis of the deposited data

Results flagged for a closer look

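Of the 28 named genes whose effects in the ZRANB1 and EZH2 comparisons were compared by a test of the difference itself (limma, all 4 groups), 20 differed at an adjusted p below 0.05, all in the same direction, with a larger (more positive) effect in the libraries labelled ZRANB1 siRNA. The 28 include members selected on these group means and genes named for their small p in one of the comparisons, so the count is a description and is not set against the share of all tested genes. The 2 comparisons have different controls, and the difference includes that between the controls.

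Among the members, for which the difference is a description, it was 4.98 on the log2 scale for CXCL1, 4.17 for CXCL8, 2.62 for CXCL2 and 2.43 for CXCL3. Among other chemokines it was 1.93 for CCL20, 1.64 for CXCL11, 1.56 for CX3CL1 and 1.47 for CXCL10. In IL-1 and NF-kB signalling it was 3.92 for IL1B, 1.51 for NFKBIA, 0.91 for TNFAIP3 and 0.90 for IRAK2. Among AP-1 and C/EBP factors it was 1.56 for CEBPD, 1.13 for JUNB and 0.44 for JUN. For the nuclease ZC3H12A it was 3.19, and for the surface and matrix proteins MMP2, MMP1 and SDC4 it was 2.31, 1.53 and 1.41. CEBPD, ZC3H12A and MMP2 were called in opposite directions in the 2 comparisons. For EZH2 itself the difference was 0.39: its log2 difference was -1.06 with EZH2 shRNA and -0.66 with ZRANB1 siRNA.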

How the results depend on the processing

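The differences of the members are descriptions, and no stability is read from their calls. The EZH2 difference of CXCL2 ran from -0.017 to 0.088 with 1 value left out. With a pseudocount of 0.1 FPKM the log2 differences were larger: in the ZRANB1 comparison 5.997 for CXCL8, 5.46 for CXCL1, 3.74 for CXCL3 and 3.30 for CXCL2, and between the scramble controls -5.98, -6.71, -4.14 and -4.00. The count of genes called in the EZH2 comparison was 765; it was 503 with a filter at 5 FPKM, 185 with the 6 values of that comparison alone, and 411 to 587 when 1 value per gene was left out. Differences near 0 that were called nowhere changed sign. In the EZH2 comparison CXCL10 was 0.0031 with a scaling factor per group, and with 1 value left out the ranges were -0.10 to 0.096 for CXCL10, -0.25 to 0.11 for CXCL11, -0.41 to 0.028 for CCL20, -0.18 to 0.012 for CCR1, -0.28 to 0.014 for JUNB and -0.00031 to 0.23 for MTHFD2L. For MTHFD2L they were -0.087 to 0.12 in the ZRANB1 comparison and -0.18 to 0.046 between the controls. Calls of CCR1, EREG, CEBPD, IL1B, IRAK2, FOS and RC3H2 were lost in some settings, 25 results and settings in all. The cause was not tested. No paired analysis was possible because the columns carry no replicate number that follows a library. Leaving out a value used a seeded random order within each group, so it leaves out no known library. Without counts, the depth behind CXCL5, CXCL6 and CXCL16 is unknown.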
